A study of Acipenser schrenckii with 2 samples.

Results

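The miRNAs of striated muscle, miR-1, miR-133, miR-206, miR-208 and miR-499, were read in the gonads of young Amur sturgeon (Acipenser schrenckii) on a miRNA array. Probes were taken by name: after the species prefix, the name had to start with one of these 5 families followed by something other than a digit, and any letter, copy or arm was kept. This gave 22 of the 663 miRNA probes: 4 for miR-1, 12 for miR-133, 3 for miR-206, 3 for miR-499 and 0 for miR-208. The study hybridised RNA of a male gonad and RNA of a female gonad, each from 1 fish of 11 months, labelled as normal and as being early in sex differentiation, to 1 single-colour array each. The series title frames the comparison as one of miRNA expression biased by sex. The chip was built on miRNAs of other fishes, so a probe is named by its species prefix (dre for zebrafish, ola for Japanese killifish, ccr for common carp, ipu for channel catfish, pol for olive flounder) and does not show that the sturgeon holds exactly that sequence.

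MicroRNAs are short RNAs that pair through their seed, bases 2 to 8, with target mRNAs and lower their output. miR-1 and miR-133 are transcribed together and are best known from skeletal and heart muscle, where in the mouse miR-1 lowers Hdac4 and furthers differentiation while miR-133 lowers Srf and favours proliferation of myoblasts. miR-206 is a skeletal muscle relative of miR-1 with the same seed, and miR-208 and miR-499 lie in introns of myosin heavy chain genes and are tied to heart and slow muscle in mammals. Each precursor yields a 5p and a 3p strand. For miR-1, miR-133 and miR-206 the 3p strand is the one usually loaded and kept.

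The target sequences below, taken from the array files, show what the probes can and cannot tell apart. Capitals mark the seed, and positions are counted from 1 at the 5′ end. The first 4 are miR-1 and miR-206 targets that share the seed GGAAUGU, the next 4 are miR-133-3p targets that share UUGGUCC, the next 3 are miR-133-5p targets and the last 3 are miR-499 targets.
dre-miR-1: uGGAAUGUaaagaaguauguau
ola-miR-1-3p: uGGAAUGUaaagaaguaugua
dre-miR-206: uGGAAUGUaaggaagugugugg
ola-miR-206: uGGAAUGUaaggaagugugug
dre-miR-133b-3p: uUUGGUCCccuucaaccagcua
ipu-miR-133b: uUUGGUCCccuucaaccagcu
dre-miR-133c: uUUGGUCCcuuucaaccagcua
ipu-miR-133c: uUUGGUCCcuuucaaccagcu
ccr-miR-133a-5p: aGCUGGUAaaauggaaccaaa
dre-miR-133b-5p: gCUGGUCAaauggaaccaaguc
pol-miR-133-5p: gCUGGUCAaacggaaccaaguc
dre-miR-499: uUAAGACUugcagugauguuua
ipu-miR-499: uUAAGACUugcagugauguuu
ola-miR-499: aACAUCACuuuaagucugugc
The killifish probe ola-miR-1-3p lacks only the last base of dre-miR-1. From dre-miR-1 to dre-miR-206 the changes are A11G, A17G, A21G and U22G, all outside the seed. The C10U change sets both miR-133c targets apart from their miR-133b partners. dre-miR-133b-5p and pol-miR-133-5p differ by U11C alone. The ola-miR-499 target is a different sequence from the other miR-499 targets, with another seed. Much of it is complementary to the dre-miR-499 target, as the opposite strand of a precursor would be. Members name 10 different seeds in all. The remaining miR-133-3p targets of carp and killifish start 1 and 2 bases later, so bases 2 to 8 of them read UGGUCCC and GGUCCCC.

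The 3p probes of miR-1, miR-133 and miR-206 read above background in both gonads, while those of miR-499 and of the 5p strands of miR-1 and miR-206 lay at or near it. On the female array dre-miR-206 and dre-miR-133c missed a stricter limit, the 99th percentile over empty spots. A probe, spotted 5 times, counted as detected where at least 3 spots lay above a limit, the 95th percentile over that array's empty spots (113 on the male array, 103 on the female array). By this rule 15 of the 22 members were detected on the male array and 20 on the female array. Over all 663 miRNA probes, 430 were detected on the male array and 476 on the female array. The limit lay 32.3 above the empty-spot median on the male array and 16.8 above it on the female array, so these counts do not compare the sexes. The 5 that only the female array detected were dim on both arrays. After background subtraction they read 17.1 to 58.6 on the female array and 12.8 to 30.4 on the male array. Levels are normalized log2 intensities, the mean of 5 repeat spots ± their SD, which is technical. With 1 fish and 1 array per sex there is no test between the sexes, no replicate check and no p-value. In pieces of a whole organ, fewer muscle cells and less of a miRNA in each cannot be told apart.

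**Figure D1:**
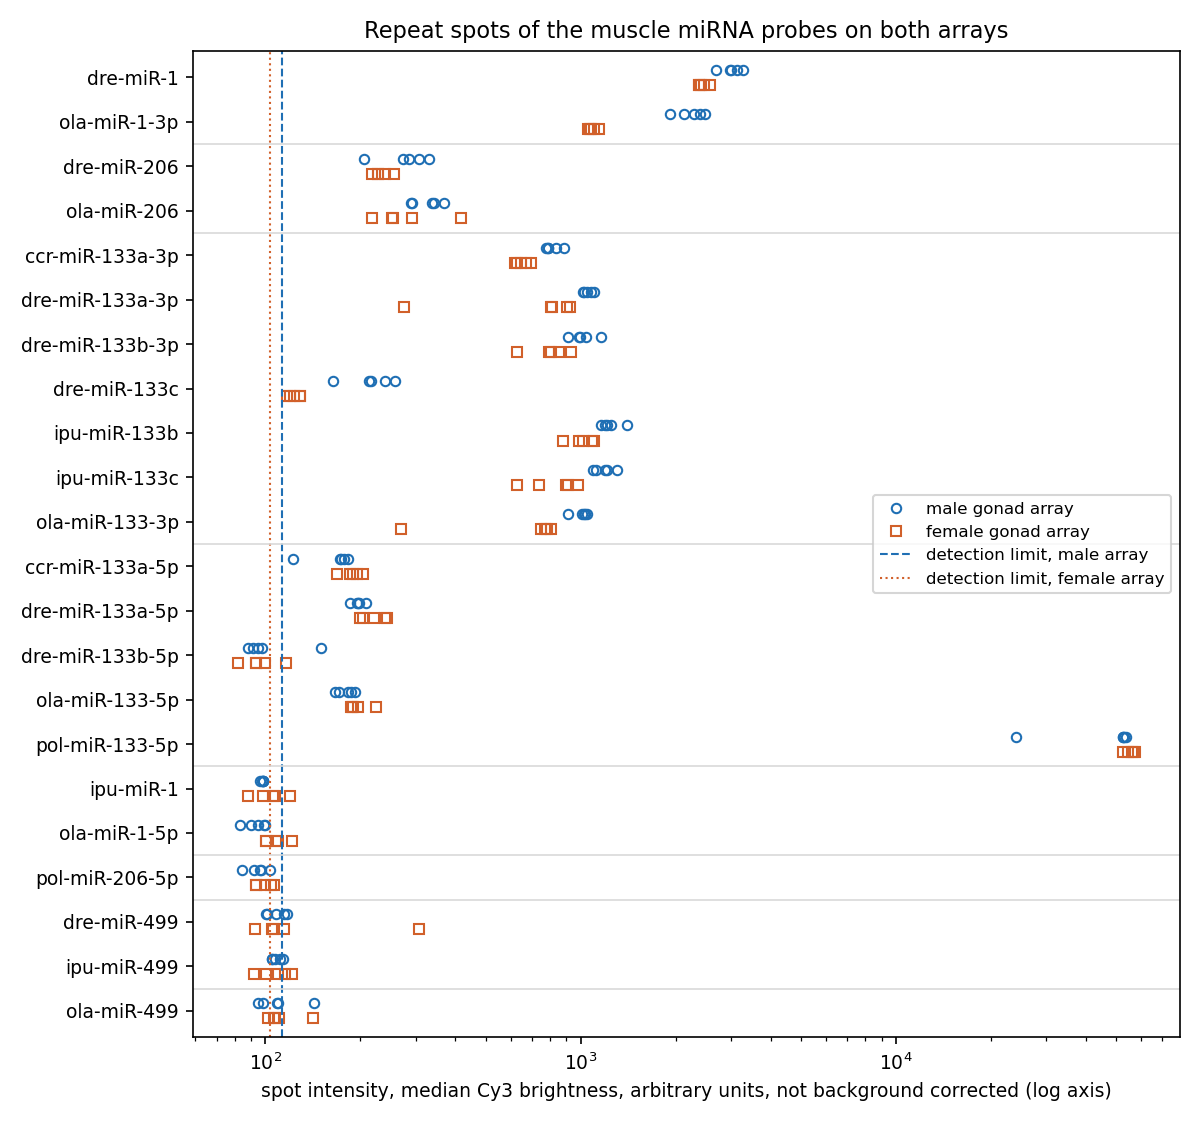
Spot intensities of the 22 probes on a log axis, 5 repeat spots per array (circles, male gonad; squares, female gonad), with horizontal rules between strands of a family and vertical lines at the detection limits of 113 (male) and 103 (female). pol-miR-133-5p sits far to the right of the other probes on both arrays, most 3p probes of miR-1 and miR-133 lie in the middle, and the miR-499 probes crowd the limits.

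No member differed enough between the sexes to pass the size rule used here. That rule asked for detection in the brighter array, a difference of at least 1 on the log2 scale and no overlap between the spots of the arrays. It was met by 0 of the 22 members in either direction. Across the chip, 4.69% of the 490 probes detected on at least one array were higher in the male gonad and 1.63% were higher in the female gonad. A count of 0 of 22 is near that background and is no result about the members. Over the 20 members detected on at least one array the median male minus female difference was -0.24, with 15 below 0 and 4 above. Over all 490 such probes it was -0.06, with 274 below 0. Some of the 20 were detected on the female array only, where the limit was lower. Over the 15 members detected on both arrays the median was -0.26, with 11 below 0 and 3 above. Over all 416 probes detected on both arrays it was -0.06, with 228 below 0. Several members have nearly the same target, so these counts are not of separate observations. These differences are relative to the scaling: before normalization the median difference over the 490 detected probes was 0.37, and that over the 20 members 0.23. Without normalization 1 member passed as higher in the male gonad, where 15.1% of detected probes did so. With scaling to the P control probes 2 did, where 22.2% did so. In both settings 0% of detected probes passed as higher in the female gonad.

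**Figure D2:**
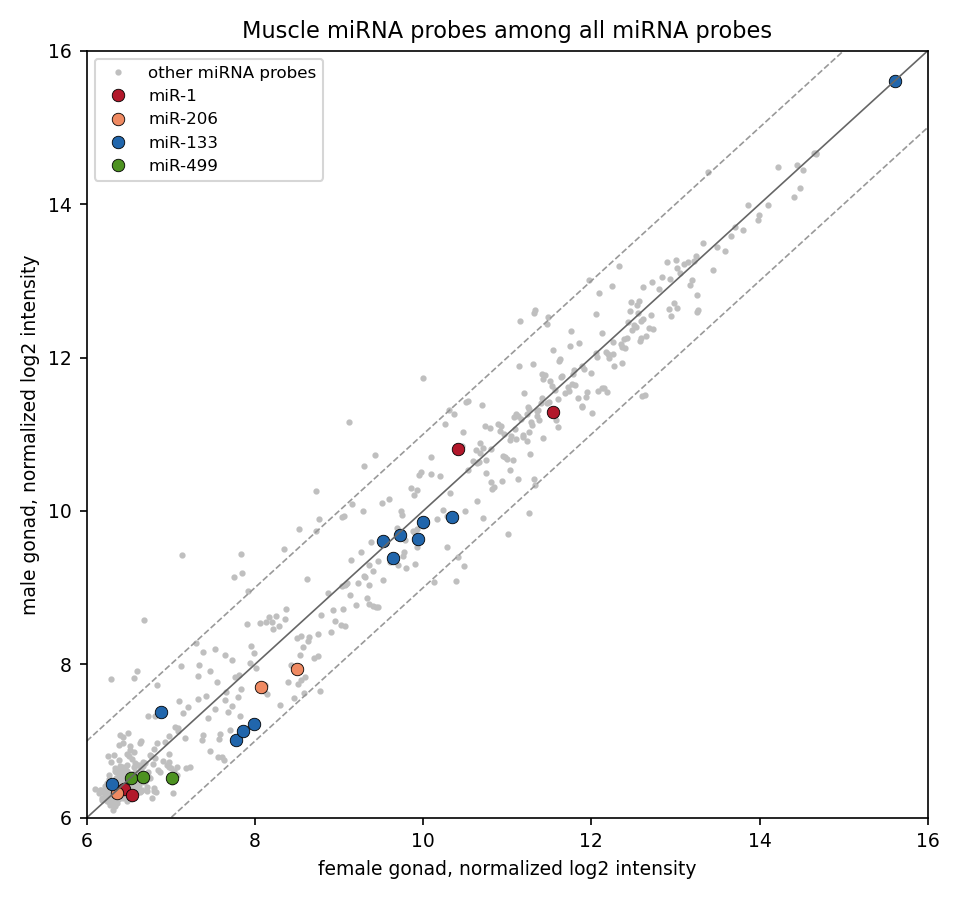
Normalized log2 intensity of the miRNA probes in the male gonad (vertical) against the female gonad (horizontal), with the members coloured by family, the diagonal of equal values and dashed lines at a difference of 1. All members lie between the dashed lines, and the miR-133-5p probes near 7 and 8 lie closest to the lower one.

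miR-1, the muscle miRNA that furthers differentiation, gave bright readings in both gonads. dre-miR-1, whose target the array files list for 6 of the chip's fishes, read 11.29 ± 0.11 in the male gonad and 11.55 ± 0.05 in the female gonad, which ranked it 139 on the male array and 116 on the female array among the 663 probes. Its spots ran from 2686 to 3282 on the male array and from 2366 to 2563 on the female array before any correction. Both ranges were narrow and did not overlap. ola-miR-1-3p read 10.81 ± 0.14 in the male gonad and 10.41 ± 0.05 in the female gonad, from spots of 1924 to 2470 on the male array and 1052 to 1147 on the female array. The male minus female difference was thus -0.26 for dre-miR-1 and 0.39 for ola-miR-1-3p, opposite signs for targets that differ by a single end base. Background subtracted and before normalization, male over female was 1.25 for dre-miR-1 and 2.15 for ola-miR-1-3p. ola-miR-1-3p kept its positive sign under all 11 other ways of setting the arrays level, correcting background or summarising spots, while dre-miR-1 was below 0 under 9 of them and above 0 without normalization (0.31) and when scaled to the P control probes (0.55).

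miR-206, the skeletal muscle relative of miR-1, was detected with all 5 spots on both arrays but was dim. At a detection limit set at the 99th percentile of empty spots dre-miR-206 was not detected on the female array. dre-miR-206 read 7.70 ± 0.28 in the male gonad and 8.08 ± 0.10 in the female gonad. ola-miR-206, the same target without the last base, read 7.95 ± 0.16 in the male gonad and 8.50 ± 0.38 in the female gonad. The differences of -0.37 and -0.55 lay below 0 together, yet the spots of the arrays overlapped for both probes. For ola-miR-206 a single female spot of 419, against 218 to 291 for the other 4, widened the female range and raised the female reading. Without spots over 0.5 from the median of their probe the differences were -0.29 for dre-miR-206 and -0.28 for ola-miR-206. Both differences turned positive without normalization (0.25 and 0.22) and with scaling to the P control probes (0.49 and 0.46). The miR-206 readings stand close to the miR-1 readings in seed and sequence only: a probe's brightness depends on its own sequence, so an order among probes is not an order of abundance.

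The 7 miR-133-3p probes, for the strand that lowers Srf in mouse muscle, were all detected on both arrays. Apart from dre-miR-133c they read 9.39 to 9.92 in the male gonad and 9.53 to 10.34 in the female gonad. ipu-miR-133b was the brightest at 9.92 ± 0.11 in the male gonad and 10.34 ± 0.13 in the female gonad. ipu-miR-133c read 9.86 ± 0.10 in the male gonad and 10.002 ± 0.27 in the female gonad. dre-miR-133b-3p read 9.64 ± 0.13 in the male gonad and 9.94 ± 0.22 in the female gonad. ccr-miR-133a-3p, which starts 1 base later, read 9.39 ± 0.08 in the male gonad and 9.64 ± 0.07 in the female gonad. Each of these 4 was slightly lower in the male gonad, by -0.42, -0.14, -0.30 and -0.25, and only for ipu-miR-133b and ccr-miR-133a-3p did the normalized spots of the arrays not overlap. All 4 turned positive without normalization and with scaling to the P control probes.

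Single low spots moved the values of another pair of miR-133-3p probes. dre-miR-133a-3p read 9.69 ± 0.05 in the male gonad and 9.73 ± 0.76 in the female gonad, where 4 spots gave 805 to 924 and 1 gave 275. ola-miR-133-3p, the shortest target at 18 bases, read 9.60 ± 0.08 in the male gonad and 9.53 ± 0.71 in the female gonad, where 4 spots gave 748 to 807 and 1 gave 269.9. With all spots the differences were -0.04 and 0.08. Without spots over 0.5 from the median of their probe they were -0.43 and -0.29.

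dre-miR-133c stood apart from the rest of the miR-133-3p probes. It read 7.38 ± 0.27 in the male gonad and 6.89 ± 0.07 in the female gonad, from spots of 164 to 258 on the male array and 117 to 129 on the female array. These ranges did not overlap, but after normalization the spots did. The difference of 0.49 was the highest of all 22 members and stayed above 0 under all 11 alternatives (0.27 to 1.11). Background subtracted, male over female was 3.75. Its twin ipu-miR-133c, which lacks only the final base, was far brighter on both arrays and differed by -0.14, so the nearest probe had the opposite sign. Plain subtraction of the empty-spot median took dre-miR-133c past the 2-fold limit (1.03), where 7.96% of detected probes were higher in the male gonad. At a detection limit set at the 99th percentile of empty spots dre-miR-133c was not detected on the female array.

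On the 5p side, the 3 probes for the miR-133a kind (ccr-miR-133a-5p, dre-miR-133a-5p and ola-miR-133-5p, targets of 21 to 23 bases that hold one another) were dim and had like differences. ccr-miR-133a-5p read 7.01 ± 0.27 in the male gonad and 7.77 ± 0.11 in the female gonad. dre-miR-133a-5p read 7.22 ± 0.07 in the male gonad and 7.99 ± 0.14 in the female gonad. ola-miR-133-5p read 7.13 ± 0.10 in the male gonad and 7.86 ± 0.12 in the female gonad. The differences of -0.76, -0.76 and -0.72 were the lowest of the members, and 27 of the 490 detected probes on the chip (5.51%) lay at or below the highest of them. After normalization their spots did not overlap between the arrays. Before it they did: ola-miR-133-5p spots ran from 166 to 191.9 on the male array and from 187 to 225 on the female array.

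These 3 probes share nearly all their bases and are therefore 1 observation on each array rather than 3. With a size limit of 1.5-fold in place of 2-fold all 3 counted as higher in the female gonad, where 7.76% of detected probes did so, and no member counted as higher in the male gonad, where 10.2% did so. With plain subtraction of the empty-spot median they differed by -1.26, -1.12 and -1.18 and passed the 2-fold limit, against 5.1% of detected probes. The differences were smaller with cyclic loess (-0.45, -0.47 and -0.40) and without normalization (-0.24, -0.20 and -0.16). Background subtracted and before normalization, female over male was 1.19, 1.16 and 1.11. Only scaling to the P control probes took the difference to 0 or above (0.00, 0.04 and 0.08). In the authors' deposited value table they read 50.5, 70.2 and 64.0 for the male array and 126, 177 and 142 for the female array. At a detection limit set at the 99th percentile of empty spots none of the 3 was detected on the female array.

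pol-miR-133-5p, built for the olive flounder 5p strand, was the brightest of the 663 probes on either array. Its spots read 52527, 52330.1, 53463, 52924 and 23972 on the male array. On the female array they read 52619, 56915, 54327, 55939 and 57256. All but a single male spot lay between 52330.1 and 57256, and that spot had a pixel SD of 14718, against 229 to 1768 for the other 4 male spots. Background subtracted, the probe averaged 46963 on the male array and 55325 on the female array, which was 3.47% and 5.27% of the summed signal of all miRNA probes. The next brightest probe on each array, of the miR-21 family, was dimmer by a factor of 1.84 on the male array and 2.08 on the female array. Quantile normalization gave the probe 15.61 on both arrays because it ranked first on both, so that equality is set by the method. Without the low spot the male mean was 52811 ± 500.2 (SD, n = 4 spots), and female over male, background subtracted, was 1.05. The male minus female difference, with all spots, was -0.85 and -0.90 under the 75th percentile scalings, -0.30 without normalization and 0.16 in the authors' deposited value table (56178 for the male and 50409 for the female array), so its sign depended on the processing.

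The reading of pol-miR-133-5p was shared by no relative on the chip. dre-miR-133b-5p, which differs from it by U11C alone and has the same seed, was detected on neither array: its spots read 97.8, 88.1, 91.1, 149.7 and 94.6 on the male array and 116, 93.3, 82.1, 93.5 and 100.01 on the female array. Background subtracted, pol-miR-133-5p was at least 1455-fold above its partner on the male array and at least 3299-fold on the female array, taken against the detection limit. The next closest targets, the miR-133a-5p probes with 3 mismatches, read 85.2 to 116 on the male array and 102 to 135 on the female array after background subtraction. No probe other than these had fewer than 7 mismatches to it in an ungapped alignment over at least 18 bases. The bright value therefore rests on 1 probe sequence, spotted 5 times on each array.

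Probes that differ by 1 substitution often gave different readings on this chip. It held 87 such pairs of equal length with at least one detected probe, of which 4 were pairs of members. Among the 83 other pairs the median gap in normalized log2 intensity was 0.95 on the male array and 1.07 on the female array. The pair of pol-miR-133-5p and dre-miR-133b-5p joins the brightest probe of the chip to an undetected one and was singled out for that, so its gap is not ranked against the others.

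The C10U change gave 2 different outcomes. Between ipu-miR-133b and ipu-miR-133c, both of 21 bases, the gap was 0.07 on the male array and 0.34 on the female array. Between dre-miR-133b-3p and dre-miR-133c, the same sequences with an A added at the 3′ end, it was 2.26 on the male array and 3.05 on the female array. The targets of ipu-miR-133c and dre-miR-133c differ by the added base only, and their gap was 2.48 on the male array and 3.11 on the female array. What made this gap was not tested. The pair was singled out for the low reading of dre-miR-133c, so its gap is not ranked against others. For the miR-133b targets the added base went with a gap of 0.29 on the male array and 0.40 on the female array. Over the 10 member pairs in which one target holds the other the median gap was 0.22 on the male array and 0.41 on the female array. Over the 193 other pairs of this kind it was 0.22 on the male array and 0.25 on the female array. The pair of dre-miR-1 and ola-miR-1-3p had gaps of 0.48 and 1.14, and the gap between their sex differences was 0.65. That pair was singled out above for its opposite signs, so this gap is not ranked against others. Over the 10 member pairs the median gap between sex differences was 0.18, against 0.15 over the 193 other pairs.

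**Figure D3:**
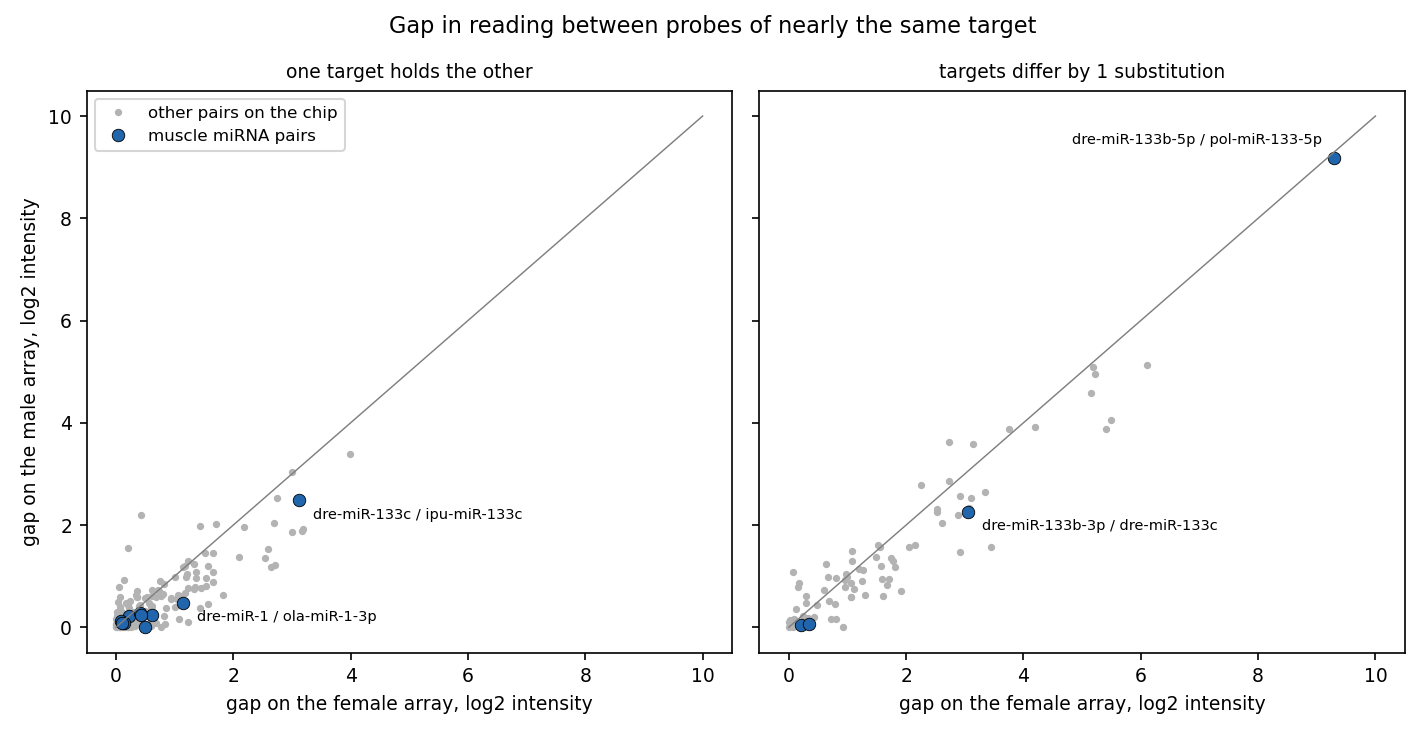
Gap in normalized log2 intensity between the probes of a pair on the male array (vertical) against the female array (horizontal), for pairs in which one target holds the other with at most 2 bases more (left) and pairs that differ by 1 substitution (right). Member pairs are large points. The gap of dre-miR-133b-5p and pol-miR-133-5p, plotted at 9.17 (male) and 9.30 (female), joins the brightest probe to an undetected one. The gap of dre-miR-133c and ipu-miR-133c lies at 2.48 (male) and 3.11 (female).

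The 5p strands of miR-1 and miR-206, usually the discarded strands, gave almost no signal. ipu-miR-1, whose name carries no arm, has the target of ola-miR-1-5p with 1 more base and so reads the 5p strand. It read 6.38 ± 0.02 in the male gonad and 6.44 ± 0.19 in the female gonad. ola-miR-1-5p read 6.30 ± 0.13 in the male gonad and 6.54 ± 0.13 in the female gonad. Neither was detected on the male array, each had 3 of 5 spots above the limit on the female array, and against the lowest detected male value neither allowed a fold. pol-miR-206-5p was detected on neither array, with 6.33 ± 0.13 in the male gonad and 6.36 ± 0.10 in the female gonad.

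miR-499, of a myosin heavy chain intron, was at the edge of detection. dre-miR-499 read 6.52 ± 0.12 in the male gonad and 7.02 ± 0.77 in the female gonad. Its male spots were 115, 100.6, 101.3, 108 and 117, and its female spots 308, 106, 92.9, 115 and 105. The difference rested on a single female spot: on the normalized scale it was -0.49, and 0.03 without spots over 0.5 from the median of their probe. Against the lowest detected male value it was at least 1.37-fold higher in the female gonad, a bound that rests on the same spot. ipu-miR-499, the same target without the last base, read 6.52 ± 0.06 in the male gonad and 6.52 ± 0.19 in the female gonad. ola-miR-499 read 6.54 ± 0.27 in the male gonad and 6.67 ± 0.21 in the female gonad. The same kind of bound for it was 1.07-fold, and its spots overlapped between the arrays. None of the 3 had more than 2 male spots above the limit.

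Read by their brightest probe, with some probes left out, the families stood in the order miR-1, miR-133, miR-206 and miR-499 on both arrays. Left out were the 5p strands of miR-1, miR-133 and miR-206, and ola-miR-499 with its different target. With the 5p strands kept, pol-miR-133-5p (15.61 on both arrays) would put miR-133 first. Of the probes left in, the brightest were dre-miR-1, ipu-miR-133b and ola-miR-206, given above. For miR-499 it was ipu-miR-499 on the male array (6.52) and dre-miR-499 on the female array (7.02). The miR-499 place is a bound on the male array, where no miR-499 probe was detected. On the female array the reading of 7.02 rests on a single spot, but the last place does not. There ipu-miR-499 read 6.52, against 8.08 for dre-miR-206 and 8.50 for ola-miR-206. The order is one of probe readings, and chip position, base composition and length differ between them: G and C made up 27.3% of the dre-miR-1 target and 52.4% of the ipu-miR-133b target.

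**Figure D4:**
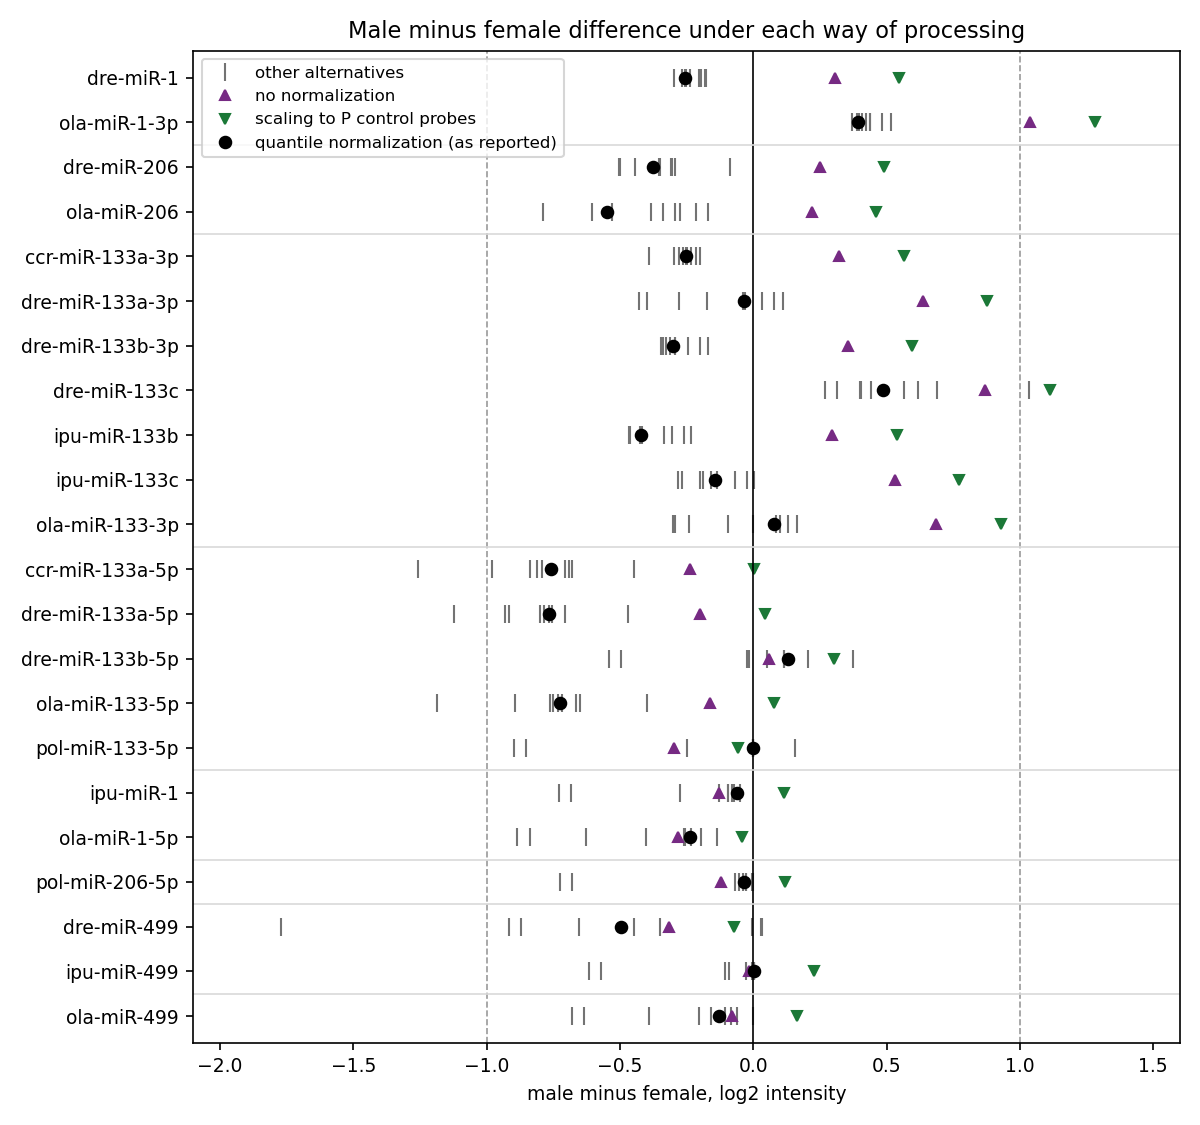
Male minus female log2 difference of each of the 22 probes as reported (black circles), without normalization (upward triangles), scaled to the P control probes (downward triangles) and under the other alternatives (bars), with dashed lines at -1 and 1. The 3p probes of miR-1, miR-206 and miR-133 other than ola-miR-1-3p, dre-miR-133c and ola-miR-133-3p lie below 0 as reported and above 0 under both kinds of triangle, while the miR-133a-5p probes stay at or below 0.08 throughout.

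Marker miRNAs of other cells in the dissected tissue were read in the same way. Of the smooth muscle and mesenchyme list (miR-143, miR-145, miR-199 and miR-214), 14 of 15 probes were detected on each array and 0 passed the size rule. Their summed background-subtracted intensity was 145429 on the male array and 134052 on the female array, against 58918 and 63771 for the striated muscle members, of which pol-miR-133-5p alone made up 46963 and 55325. The sums of this paragraph are not normalized, and the summed intensity of all miRNA spots was higher on the male array (7.03e+06 against 5.53e+06). They also add probes that differ in number and brightness, so they order neither the sexes nor the cell types. Of the gonad marker miR-202, 1 of 3 probes was detected on both arrays and was higher in the male gonad. The erythroid list (miR-144 and miR-451) had 6 of 6 probes detected on each array, 0 past the rule and a median difference of -0.36. The skin epithelium list (miR-203 and miR-205) had 9 of 10 detected on each array, 0 past the rule, a median difference of -0.12 and a summed intensity of 47293 on the male array and 41617 on the female array. Neural miR-9 and miR-124 had 0 of 13 probes detected on the male array and 4 on the female array, where the limit was lower. Their summed intensity was 256 on the male array and 201 on the female array. Among 4 liver probes, 2 lay above the detection limit on each array, and these 2 passed the rule toward the male gonad. They were dim on the female array (6.59 and 6.56), and their targets hold one another, so they are 1 observation on each array. Among 5 male germ cell probes, 4 were detected on either array and 3 passed the rule toward the male gonad. Among 8 kidney and gut probes, 6 were detected on either array and 4 passed the rule toward the female gonad. These 4 are probes of miR-192 and miR-194 only, and the targets of ccr-miR-194 and dre-miR-194a hold one another. Chip-wide, 4.69% of the 490 probes detected on either array passed the rule toward the male gonad and 1.63% toward the female gonad. Without normalization, and with scaling to the P control probes, 0 of the 490 passed toward the female gonad. The kidney and gut calls are thus relative to the scaling. In a list of other miRNAs linked to muscle (miR-22, miR-24, miR-26, miR-27, miR-29 and miR-181, with no probe for miR-378 or miR-486), 47 of 52 probes were detected on at least one array and 1 passed the rule, ola-miR-181a-5p, at 11.49 ± 1.76 in the male gonad and 12.60 ± 0.09 in the female gonad. Without spots far from their probe's median its difference was -0.28, no longer past the rule. The median difference of that list was -0.16. The part of any of these cells in the members' readings was not tested.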

How the data were processed

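Per the labels, size-filtered small RNA of 1 male and 1 female gonad was tailed with poly(A), tagged and stained with Cy3. Per the file headers, the deposited scanner files give the median intensity and pixel SD of each of 3968 spots, 3315 of them for 663 miRNA probes and 361 empty. Values are not background corrected: empty spots had medians of 80.5 (male) and 86.7 (female). Summed miRNA intensity was 7.03e+06 and 5.53e+06. No source used here names the array software. The table that the authors deposited holds 1 processed linear intensity per probe, made by an unstated method.

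Intensities were corrected by normexp (offset 50), averaged on the log2 scale over 5 spots and quantile normalized over the miRNA probes (limma 3.58.1 in R 4.3.3). This gives both arrays 1 distribution and hides any global difference. Sequences were compared in Python 3.11.15. The size rule was tested on simulated data with larger differences than any member showed. No far spots and no shift between the arrays were simulated, so that test does not cover the members' range. Members, lists and rules were chosen with earlier results of these data known. All members are accounted for. Non-members were named only from the marker lists or, for novel_13 and the miR-21 family, after their values were seen. The number of arrays limits the precision.

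Alternatives were cyclic loess, no normalization, scaling to P control probes or to the 75th percentile (2 kinds), plain subtraction (floor of 16), offset 16, no background correction, spot medians, no far spots, the authors' table (50 added before log2), and other size, overlap, detection and counting rules.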

Additional observations from a re-analysis of the deposited data

How the results depend on the processing

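The count of members past the size rule was 0 in either direction and moved with the scaling, the background step and the size limit. Without normalization 1 member was higher in the male gonad (ola-miR-1-3p), with scaling to the P control probes 2 (with dre-miR-133c), and with plain subtraction of the empty-spot median 1 (dre-miR-133c) against 3 higher in the female gonad (the miR-133a-5p probes). A size limit of 1.5-fold also gave 3 higher in the female gonad. The authors' table gave 0 in either direction, but with a constant added before log2. Without that constant, male over female was 0.40 (ccr-miR-133a-5p), 0.40 (dre-miR-133a-5p), 0.45 (ola-miR-133-5p) and 2.25 (dre-miR-133c), all past 2-fold. So were ipu-miR-1 (0.48) and ola-miR-1-5p (0.28), which were not detected on the male array. The members' median difference of -0.24 became 0.23 with no normalization and 0.48 with scaling to P control probes, and lay between -0.37 and -0.17 under the other alternatives. With the detection limit at the 99th percentile 10 members were detected on the female array in place of 20. The 10 included none of the miR-133a-5p probes and neither dre-miR-206 nor dre-miR-133c. The signal of these missing probes over background limits what can be said of them. Ranks of the 5 family probes stayed within a factor of 1.5 under the alternatives run. Of 242 single differences under alternatives, 186 moved by less than the SD over the probe's own spots. A single far spot widens that SD, so this count is no measure of stability. Without far spots dre-miR-133a-3p, with a female SD of 0.76, went from -0.04 to -0.43. No paired analysis was possible because each sex has 1 array. The causes were not tested.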

Other observations

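A custom probe of the chip, novel_13, is no member by name but carries a miR-499 target. Its target is that of dre-miR-499 with 1 more base at the 3′ end, as this line shows, with the seed in capitals.
novel_13: uUAAGACUugcagugauguuuac
It read 6.49 ± 0.16 in the male gonad and 6.71 ± 0.17 in the female gonad. It had 1 male spot and 5 female spots above the limit, and its female spots ran from 104 to 129. It thus lay beside dre-miR-499 and ipu-miR-499 at the edge of detection. No other probe outside the families came within 2 mismatches of a member over at least 16 bases.

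Spots over 0.5 from the median of their probe on the log2 scale, before background correction, numbered 3 of 110 member spots on the male array and 5 of 110 on the female array. Over all miRNA spots the shares were 1.84% on the male array and 1.96% on the female array. The low female spot of dre-miR-133a-3p had a pixel SD of 121, and that of ola-miR-133-3p a pixel SD of 22.8, below that of its other spots.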
